A study of Xenopus tropicalis with 12 samples.

Results

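The comparison here is natural metamorphosis with the thyroid hormone receptor (TR) present: the whole intestine of wild-type (TRα+/+ TRβ+/+) Xenopus tropicalis tadpoles at stage 61, the climax of metamorphosis, against the same organ at stage 54, before metamorphosis begins. It holds 6 of the 12 RNA-seq libraries of the series, 3 at stage 61 and 3 at stage 54, chosen by the genotype and stage in the labels. The other 6 libraries come from tadpoles that lack both receptor genes (TR double knockout, TRDKO), at the same 2 stages, and the labels do not say which of the study's TRβ deletion lines they came from. They share the fit with the wild-type libraries and are otherwise used below only for side-by-side values. No tadpole was treated with hormone. How many animals stand behind each sequencing library is not given, although several were pooled per sample for the study's RT-PCR.

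As background, a tadpole digests its food in a long gut with few folds, built for a plant diet, which is rebuilt into the short, folded gut of the frog. During metamorphosis rising thyroid hormone (T3) binds its nuclear receptors, which repress their target genes without hormone and activate them with it. The larval epithelial cells then die by apoptosis, adult stem cells appear and proliferate, the tube shortens, and connective tissue and muscle thicken. Stage 61 falls within this changeover, so a library of the whole intestine at that stage can hold dying larval cells, new stem cells and a larger part of non-epithelial tissue. In such bulk samples, fewer cells of a type and less RNA per cell cannot be told apart.

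The count table lists Ensembl gene IDs without names, and 0 of these IDs matched the gene table used here. The TR genes, known T3 response genes, and markers of the intestine or of neighbouring tissues were therefore not analysed here, and the labelled tissue was not checked against its markers. What follows describes the change over all genes, and by ID 4 genes whose levels moved most. Counts are not corrected for gene length, so a rank by share of counts orders genes by reads and not by molecules.

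The stage 61 libraries held between 20112705 and 33588231 counts, and the stage 54 libraries between 21418372 and 31110136. Libraries of a stage were close copies of each other. The biological coefficient of variation was 2.85% at stage 61 and 2.08% at stage 54 (edgeR, n = 3 each), and Spearman correlations across genes were 0.998 within stage 61 and 0.997 within stage 54. Within a stage, paired libraries deviated little beyond sampling noise (median chi-square 1.24 to 1.88 times its expectation). Between the stages the same correlation was 0.793 to 0.796. The study calls its RNA samples biological replicates, but the labels do not tie the libraries of a stage to separate animals. The spread between libraries of a stage may thus be close to technical. The edgeR p-values below measure change against a spread estimated over all 12 libraries, TRDKO included. For ENSXETG00000010783, described below, the adjusted p was 2.08e-11 in this fit (edgeR). It was 5.63e-115 without TRDKO stage 54 replicate 3 and 3.3e-101 with the 6 wild-type libraries alone (edgeR).

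The clearest change was in how the intestine divided its messenger RNA among genes. At stage 61, counts were spread over far more genes than at stage 54, a result that rests on shares within each library and needs no scaling between libraries. At stage 61, the 314, 321 and 311 most abundant genes held 50% of the counts in replicates 1, 2 and 3, against 114, 114 and 113 genes at stage 54. All stage 61 libraries lay far above all stage 54 libraries, with means of 315 ± 5.13 and 114 ± 0.577 genes (SD, n = 3 each). The 100 most abundant genes took 34.3% ± 0.231 of counts at stage 61 and 47.9% ± 0.15 at stage 54 (SD, n = 3). The single most abundant gene took 3.54% ± 0.156 at stage 61 and 6.72% ± 0.11 at stage 54 (SD, n = 3). The Shannon diversity of the counts, which is higher when reads are spread evenly over more genes, was 11.1 ± 0.0171 bits at stage 61 and 9.70 ± 0.0133 bits at stage 54 (SD, n = 3). Each of these measures separated the stages without overlap (two-sided exact permutation test, p = 0.1 for each, the smallest p that 3 libraries against 3 allow, and 0.1 after Benjamini-Hochberg adjustment over 7 measures).

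**Figure D1:**
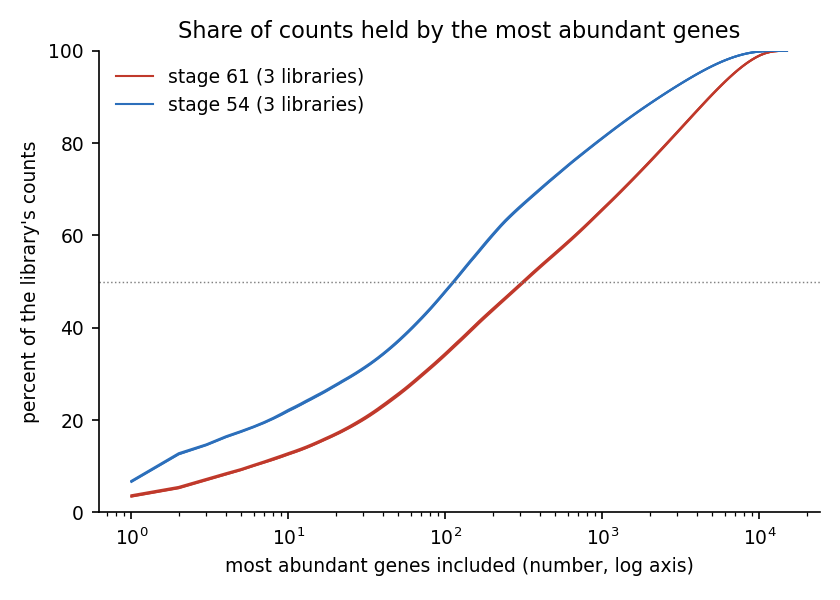
Percent of a library's counts (vertical axis) held by the most abundant genes, against the number of genes included (horizontal log axis), with 1 line for each of the 3 stage 61 libraries (red) and the 3 stage 54 libraries (blue). The lines of a stage lie on each other, and the dotted 50% line is reached at 311 to 321 genes at stage 61 and at 113 or 114 genes at stage 54.

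More genes were also detected, a measure not separate from the spread of counts above. At equal totals, the larger share of the leading genes at stage 54 leaves fewer counts there for the others. With each library thinned at random to 20112705 counts, the smallest total, 13430 ± 13.6 genes had at least 10 counts at stage 61 and 11397 ± 3.61 at stage 54 (SD, n = 3). The difference of about 2030 genes was of the same size without thinning, at 13679 ± 214 and 11688 ± 215 genes. Leaving out the 100 most abundant genes, the intestine at stage 61 still had the higher diversity, by 0.868 bits.

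The most abundant genes were partly exchanged. Of the 100 genes with the largest mean share of counts at stage 61 and the 100 at stage 54, 61 were on both lists (61.0% of each). The 100 leading genes of stage 61 held 34.3% ± 0.229 of counts at stage 61 and already 40.1% ± 0.177 at stage 54 (SD, n = 3). The 100 leading genes of stage 54 fell to 28.5% ± 0.186 of counts at stage 61, against 47.9% ± 0.153 at stage 54. Among the leading genes of stage 54, 8 ranked below place 1000 at stage 61, the lowest at place 11903. In the other direction, 4 leading genes of stage 61 had ranked below place 1000 at stage 54, the lowest at place 3368. These lists were chosen on the libraries they describe, so the values are a description with no test. Among the 10 most abundant genes, 7 were shared by both stages.

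Differences of single genes were tested in 13954 of the 19921 listed genes with edgeR's quasi-likelihood test. Libraries were scaled by TMM, which sets the bulk of genes to no change on average, and a gene was called when its adjusted p was under 0.05 and its level changed over 2-fold. By this rule 30.4% of the genes tested were higher and 21.2% were lower at stage 61, with 51.6% called in all (4247 and 2960 genes). In TMM-scaled CPM, the levels of the 3 stage 61 and 3 stage 54 libraries did not overlap in 12433 genes, or 89.1%. A random order of the libraries would separate 3 from 3 in a share of 0.1 of genes. The number under library size alone was not computed. Under TMM, rises were larger than falls over all tested genes together, but not at every level. This overall difference is a description only. It takes in 1025 genes at 3 counts or fewer in every stage 54 library. Those genes passed the filter on low counts only through other libraries, which bears on their direction. In the lowest 10% of genes by level over both stages, the 5th and 95th percentiles of log2 fold change were -2.79 and 7.03. In the highest 10% they were -3.82 and 0.94. The filter on low counts bears on the direction of genes in the lowest class, so its percentiles are a description only. Over all tested genes the middle of the distribution lay near 0 (median log2 fold change 0.13), while the 99th percentile stood at 6.98 and the 1st percentile at -5.05. Genes at 3 counts or fewer in every library of a stage were set to the level of 3 counts there, a working bound. On this basis the median change was 4.67-fold among the higher genes and 3.31-fold among the lower genes.

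Among the higher genes, 1726 changed 2 to 4-fold, 1378 changed 4 to 10-fold, 986 changed 10 to 100-fold and 46 more than 100-fold, counting such bounds. A further 111 had a bound under 2-fold. Among the lower genes, 1813 changed 2 to 4-fold, 719 changed 4 to 10-fold, 385 changed 10 to 100-fold and 43 more than 100-fold.

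**Figure D2:**
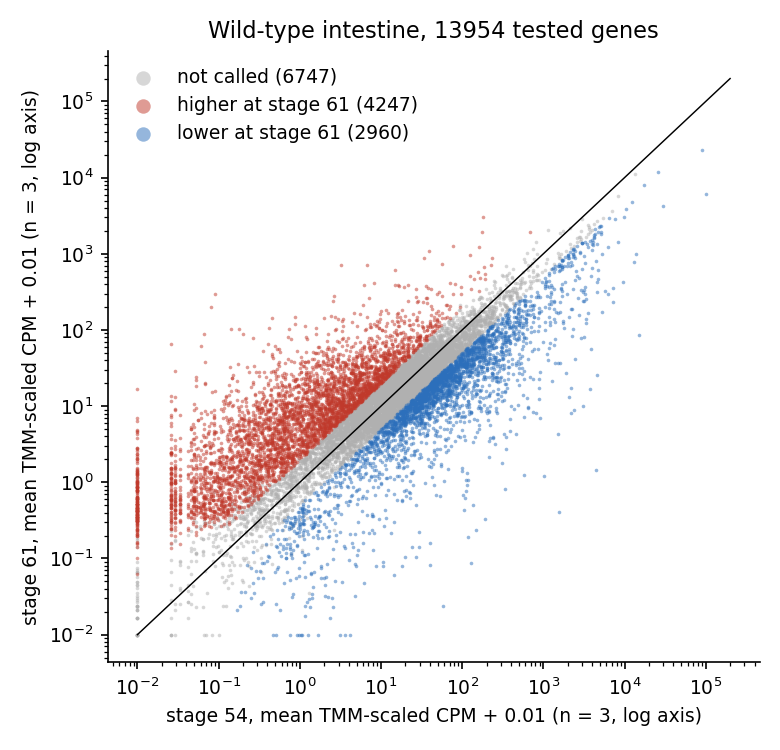
Mean TMM-scaled CPM (counts scaled to a common library total) + 0.01 of 13954 tested genes at stage 61 (vertical log axis, n = 3) and stage 54 (horizontal log axis, n = 3), with 1 point per gene and the line of equal levels. The 4247 genes called higher at stage 61 (red) lie mostly at low stage 54 levels, and the 2960 genes called lower (blue) extend to the highest levels. The 6747 genes not called are grey.

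The split between higher and lower genes depends on the scaling. TMM factors were 1.53 to 1.54 at stage 61 and 0.661 to 0.674 at stage 54, so TMM and library size alone put the same gene about 1.21 apart on the log2 scale. Library size alone moved the median log2 fold change of all genes by 1.2, to 1.33, and called 8110 genes higher and 955 lower. Higher genes were 58.9% of called genes under TMM and 89.5% under library size alone. Since this shift is nearly the same for every gene, it fixes that calls of higher genes are shared and that no called gene is opposite, which is no sign of stability. Of the 2960 lower genes, 955 were called lower by both scalings and 2005 under TMM only. Levels of total RNA per cell or per intestine were not measured, so the counts do not say which scaling is nearer to molecules per cell.

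**Figure D3:**
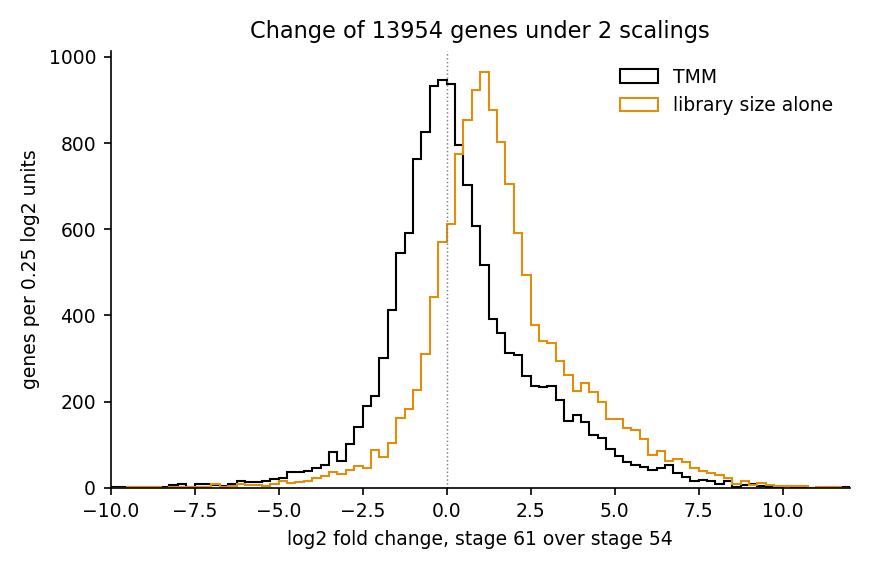
Number of genes per 0.25 log2 units (vertical axis) by log2 fold change of stage 61 over stage 54 (horizontal axis) for 13954 genes, scaled by TMM (black) or by library size alone (orange). Both distributions have the same shape with a longer right tail, and the median lies at 0.13 under TMM and at 1.33 under library size alone.

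As shares of the library, the groups of genes changed places as follows. The genes called higher held 15.3% ± 0.0253 of all counts at stage 61 and 1.28% ± 0.00295 at stage 54 (SD, n = 3). The genes called lower held 38.7% ± 0.112 at stage 61 and 74.2% ± 0.0433 at stage 54. Most of this loss lay in the 955 genes called lower under both scalings, which held 7.41% ± 0.046 at stage 61 and 36.7% ± 0.0397 at stage 54. The 2005 genes called lower under TMM only held 31.3% ± 0.136 at stage 61 and 37.5% ± 0.0331 at stage 54. Genes not called held 45.9% ± 0.0968 at stage 61 and 24.5% ± 0.0429 at stage 54. The groups were formed by the same contrast, so these shares describe it and are no further test.

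Among genes expressed at stage 54, the direction of change went with the level at that stage. The share called higher at stage 61 was 41.1% among genes at 1 to 10 CPM at stage 54. It was 7.55% at 10 to 100 CPM and 1.19% at 100 to 1000 CPM. None of the 235 genes over 1000 CPM was called higher under TMM, and 196 of them, or 83.4%, were called lower. Library size alone called 5 of these 235 genes higher and 97 lower. In the highest 10% of genes by level over both stages, 64 genes were higher and 703 lower under TMM, and 316 were higher and 264 lower under library size alone. Leaving out stage 61 replicate 1, 2 or 3 gave 37, 36 and 37 higher genes there under TMM. An excess of falls held under both scalings for the 235 genes and not for this wider class. At 10 to 100 CPM the balance turned round with the scaling, from 7.55% higher and 26.8% lower under TMM to 42.7% higher and 5.75% lower under library size alone. The classes use the same stage 54 libraries as the change itself. A further 1025 tested genes had 3 counts or fewer in every stage 54 library and passed the filter on low counts only through the other libraries, and the filter bears in part on the 1922 other genes under 1 CPM at stage 54. No share is given for these genes, since the filter bears on their direction.

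**Figure D4:**
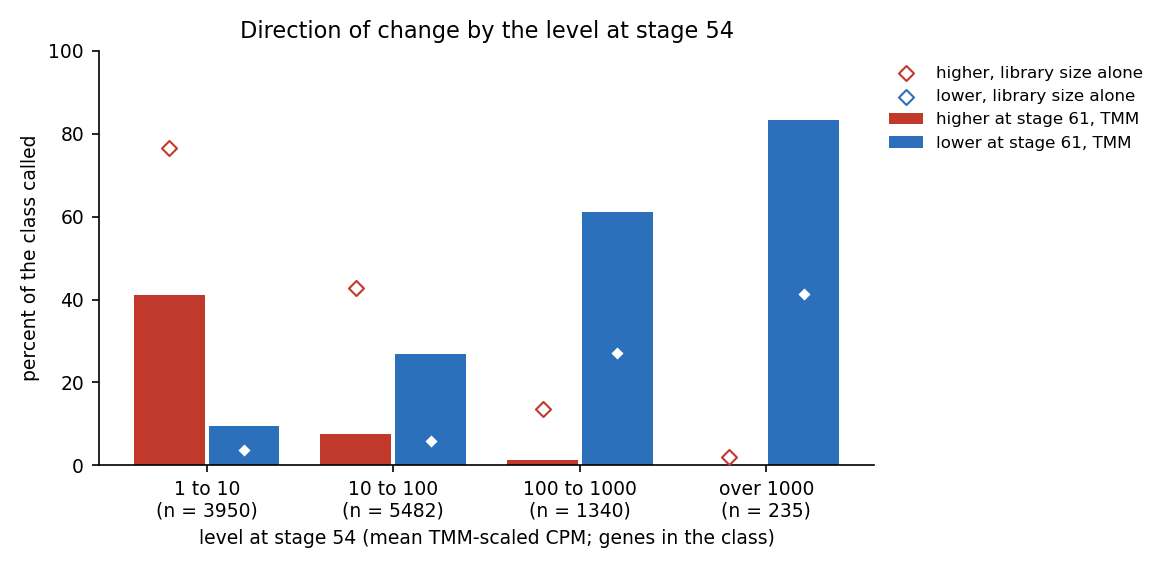
Percent of genes called higher (red) or lower (blue) at stage 61 (vertical axis) by their level at stage 54 (horizontal axis, mean TMM-scaled CPM with the number of genes), with bars for TMM and diamonds for library size alone. The share called higher is 41.1% at 1 to 10 CPM and 0% over 1000 CPM under TMM, and the share called lower reaches 83.4% in the highest class under TMM and 41.3% under library size alone. At 10 to 100 CPM more genes are lower under TMM and more are higher under library size alone. Genes under 1 CPM at stage 54 are not drawn.

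The abundant genes changed by unlike amounts, and a division into groups was not tested. Of the 235 genes over 1000 CPM at stage 54, 77 (32.8%) kept a share of counts within 1.2-fold of their stage 54 share. Among all tested genes 1243 (8.91%) did. The percentage rose with the level at stage 54, from 3.65% at 1 to 10 CPM to 13.7% at 10 to 100 CPM and 16.4% at 100 to 1000 CPM. The limit of 1.2-fold was chosen after the values were seen. Under TMM the upper quartile of the log2 fold change of these 235 genes was -1.10 and the lower quartile -3.33, and 59 of them were called lower by a fitted change of more than 10-fold. At stage 61, 75 of the 235 genes still stood over 1000 CPM, 132 lay at 100 to 1000 CPM, 22 at 10 to 100 CPM, 5 at 1 to 10 CPM and 1 under 1 CPM.

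More genes met a rule for being switched on than for being switched off. The rule was 3 counts or fewer in all 3 libraries of one stage, and a called change with a mean of at least 1 CPM at the other. Of the 13954 genes tested, 355 were switched on at stage 61 and 28 were switched off. All of them passed the filter on low counts only through libraries other than the silent ones, so the numbers are a description. Of the 355 genes switched on, 39 had no count in any stage 54 library. They remained at low levels, with a median of 2.03 CPM at stage 61 (quartiles 1.32 and 4.07) and a highest mean of 299 CPM, and 30 of them passed 10 CPM. Together they made up 0.32%, 0.327% and 0.32% of the counts in stage 61 replicates 1, 2 and 3, against 0.00148%, 0.00133% and 0.00139% in stage 54 replicates 1, 2 and 3. The 28 genes switched off had a median of 1.9 CPM at stage 54, and 1 of them passed 10 CPM there. With 0 counts as the limit for silence the numbers were 39 and 7, and with 10 counts 957 and 76. At stage 61 a count of 3 equals 0.0578 to 0.0972 CPM and at stage 54 0.146 to 0.208 CPM, so silence was easier to reach on the CPM scale at stage 54. For genes with no count these limits cover counting error only, and for genes with a few counts they do not cover it in full.

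A change could be bounded in fewer genes. The 95% interval of the change lay within 1.5-fold in 2060 genes, 14.8% of those tested, under TMM. This number depends on the fit, with 2941 genes from the 6 wild-type libraries alone and 1394 under library size alone. In 4687 other genes the change was neither called nor held within 1.5-fold by its interval, and these are not shown to be stable. Many of them passed the test under TMM: 4008 tested genes had an adjusted p under 0.05 with a change under 2-fold (edgeR). The size and sign of such small changes depend on the scaling, which the p-values take as given. Of these 4008, 753 were among the 2060 bounded genes and the rest were among the 4687. The genes bounded by TMM took 16.9% ± 0.0218 of counts at stage 61 and 7.68% ± 0.0109 at stage 54 (SD, n = 3), and 1620 of them were called higher by library size alone.

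ENSXETG00000010783 gained the most of all called genes in mean TMM-scaled CPM. It had 139373, 155673 and 96811 counts in stage 61 replicates 1, 2 and 3, against 2566, 3689 and 3374 counts in stage 54 replicates 1, 2 and 3. Its level was 3080 ± 71.6 CPM at stage 61 and 183 ± 7.12 CPM at stage 54 (SD, n = 3). The log2 fold change was 4.08 with a standard error of 0.1 (edgeR, adjusted p = 2.08e-11). It rose to rank 11 to 13 among all genes at stage 61, against rank 914 to 962 at stage 54.

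ENSXETG00000003374 gained the next most. It had 89526, 99900 and 59874 counts at stage 61 and 2494, 3675 and 3082 counts at stage 54. It ranked 30 to 32 at stage 61 and 960 to 978 at stage 54, with no overlap between the stages. Its level was 1950 ± 38.5 CPM at stage 61 and 175 ± 3 CPM at stage 54 (SD, n = 3). The log2 fold change was 3.48 with a standard error of 0.11 (edgeR, adjusted p = 2.27e-10).

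ENSXETG00000003763, the most abundant gene of every stage 54 library, lost the most. It took 0.957%, 0.95% and 0.917% of counts in stage 61 replicates 1, 2 and 3, against 6.63%, 6.7% and 6.84% in stage 54 replicates 1, 2 and 3. It was rank 5 in every stage 61 library. Under TMM its log2 fold change was -4.04 ± 0.09 (SE; edgeR, adjusted p = 9.42e-12), a fall of 16.5-fold. As a plain share of counts it was 7.14-fold lower at stage 61.

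ENSXETG00000021236 lost the next most and was the most abundant gene of every stage 61 library, having been rank 2 at stage 54. It took 3.46%, 3.44% and 3.72% of counts in stage 61 replicates 1, 2 and 3, against 5.97%, 5.92% and 5.98% in stage 54 replicates 1, 2 and 3. The stages did not overlap. Its fall was 3.88-fold under TMM (log2 fold change -1.96 ± 0.05, SE; edgeR, adjusted p = 2.37e-11) and 1.68-fold as a share of counts. Under library size alone the log2 fold change of -0.75 was no longer past the 2-fold threshold (adjusted p = 2.77e-08, edgeR).

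**Figure D5:**
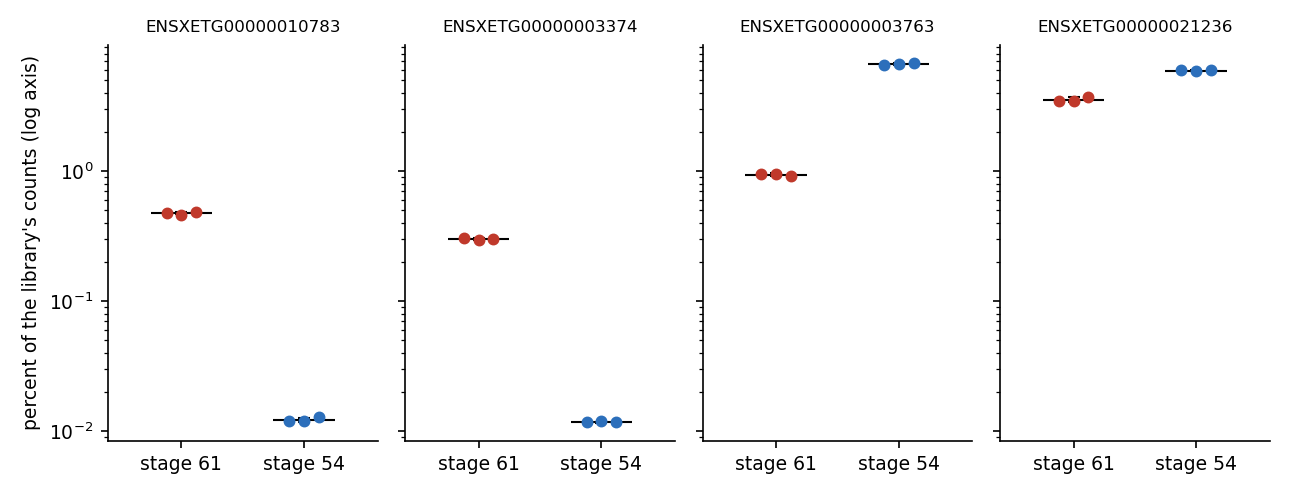
Percent of the library's counts (vertical log axis) of the 4 genes that gained or lost most, in the 3 stage 61 libraries (red) and the 3 stage 54 libraries (blue). Points are libraries, and the bar and whiskers are the mean and SD (n = 3). The 2 genes on the left hold 0.297% to 0.481% at stage 61 and 0.0116% to 0.0127% at stage 54, and the 2 on the right hold less at stage 61 than at stage 54.

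Set beside TRDKO tadpoles, the spread of counts over genes took another course. In TRDKO tadpoles, 100 ± 1 genes held 50% of the counts at stage 61 and 165 ± 12.7 at stage 54 (SD, n = 3), a narrowing, while in wild-type tadpoles the number was larger at stage 61. The stage effects of the genotypes differed by 266 genes (wild type minus TRDKO, two-sided exact permutation of genotype within stage, p = 0.005, the smallest that 400 regroupings allow, 0.007 after Benjamini-Hochberg adjustment over 7 measures). The null of this permutation is no genotype difference at either stage, and not equal stage effects. TRDKO stage 54 replicate 3 stood apart from its group at 150 genes against 172 and 172, and without it the difference was 274 genes. The number of detected genes went the same way in both genotypes. At equal depth, 12924 ± 16.8 genes had at least 10 counts at stage 61 and 12544 ± 143 at stage 54 in TRDKO tadpoles (SD, n = 3).

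The test called 24.4% of genes between the stages in TRDKO tadpoles (12.5% higher and 12% lower). Of the wild-type rises of more than 100-fold, 38 of 46 (82.6%) were also called higher in TRDKO tadpoles, and of those of 2 to 4-fold 323 of 1726 (18.7%). For falls the shares were 35 of 43 (81.4%) and 296 of 1813 (16.3%). Under TMM, most wild-type changes were nonetheless weaker or reversed without TR. The interaction test called 67.6% of all genes at an adjusted p under 0.05 (edgeR). By it, the signed effect in TRDKO tadpoles was lower in 44 of the 46 largest rises (95.7%). It was higher in 40 of the 43 largest falls. Of the rises of 2 to 4-fold, 1220 (70.7%) had a lower signed effect in TRDKO tadpoles. The signed effect includes reversals, and 119 of these 1726 genes were called lower in TRDKO tadpoles. The classes were formed on the wild-type effect, which also enters the interaction, so these shares are in part fixed by the choice. TMM factors of TRDKO libraries were 0.958 to 1, so library size alone moves the interaction by nearly the same amount in every gene. It makes the difference larger for rises. For falls it makes the difference smaller, and cancels or reverses it where it is no larger than the shift of about 1.2 on the log2 scale. Falls of 2 to 4-fold, 1813 of the 2960, had a median log2 fold change of -0.4 in TRDKO tadpoles under TMM. The shares under library size alone were not computed.

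Of the genes given by ID, ENSXETG00000010783 averaged 340 ± 3.78 CPM at stage 61 and 364 ± 54 CPM at stage 54 in TRDKO tadpoles (SD, n = 3), with a log2 fold change of -0.10 (standard error 0.09) that did not pass the test (adjusted p = 0.332, edgeR). ENSXETG00000003374 averaged 332 ± 5.98 CPM at stage 61 and 232 ± 44.7 CPM at stage 54 (log2 fold change 0.51). ENSXETG00000003763 averaged 6700 ± 90.6 CPM at stage 61 and 29200 ± 3800 CPM at stage 54 (log2 fold change -2.12). ENSXETG00000021236 averaged 34500 ± 433 CPM at stage 61 and 38500 ± 435 CPM at stage 54 (log2 fold change -0.16).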

How the data were processed

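Poly-A-selected RNA of the intestine was sequenced from wild-type and TRDKO tadpoles. The authors mapped the reads with STAR 2.6.1c to the Ensembl Xenopus tropicalis genome and counted them per gene with featureCounts 1.6.3, and the deposited values are these raw counts for 19921 gene IDs. The strand setting and the treatment of reads matching several genes are not given in the sources used here, so counts of overlapping genes and near-identical copies are uncertain. Columns were matched to libraries by title.

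All 12 libraries entered one edgeR 4.0.16 (R 4.3.3) quasi-likelihood fit with a mean per genotype and stage, after filterByExpr and TMM scaling, and Benjamini-Hochberg adjustment covered the 13954 genes kept. Calls required an adjusted p under 0.05 with a log2 fold change over 1 in size. The standard error came from the F statistic. CPM use TMM-scaled totals. Shares and diversity used raw counts of all genes. Alternatives were DESeq2 1.42.0, other scalings, filters and thresholds, the 6 wild-type libraries alone, a replicate block and single libraries left out. Same-numbered libraries of the stages did not deviate together (correlations -0.027, 0.016 and 0.006), so the numbers were not used as pairs.

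Gene lists by pathway and cell type were planned by symbol and not run, since no ID could be paired with a symbol. The genes named are the 2 with the largest gain and the 2 with the largest loss of mean CPM among called genes whose stages did not overlap. The comparison, lists and rules were chosen with earlier results of these data known. A count of 0 allows up to 3 counts, a limit that covers counting error only. The same level was used for genes with up to 3 observed counts, where it does not cover counting error in full. Standard errors and intervals come from the spread between all 12 libraries, TRDKO included.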

Additional observations from a re-analysis of the deposited data

Results flagged for a closer look

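The stage effect differed between genotypes by edgeR's interaction test in all 4 genes given by ID. TRDKO minus wild type, the log2 effects differed by -4.18 in ENSXETG00000010783 (adjusted p = 6.52e-10, edgeR) and by -2.97 in ENSXETG00000003374 (adjusted p = 2.31e-08, edgeR). They differed by 1.92 in ENSXETG00000003763 (adjusted p = 6.34e-08, edgeR) and by 1.80 in ENSXETG00000021236 (adjusted p = 2.02e-09, edgeR). Under library size alone the last pair differed by 0.72 and 0.60, still past the threshold (largest adjusted p over the alternatives 2.78e-05, edgeR). These genes were picked for their wild-type change, which enters the difference.

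In 6 of 7 measures of library makeup, the difference in stage effect passed as well (wild type minus TRDKO, exact permutation of genotype within stage). This test shuffles genotype labels within each stage, so its null is no genotype difference at either stage, and not equal stage effects. Libraries of a group may be close to technical copies, which also limits what its p can show. The stage effect in genes that reached 10 counts differed by 1530 (exact permutation p = 0.01) and, at equal depth, by 1650 (exact permutation p = 0.005). In TRDKO tadpoles these genes were also more at stage 61, by 460 and, at equal depth, by 380. The number of genes that held 50% of counts differed by 266, and Shannon diversity by 1.76 bits (exact permutation p = 0.005 each). The share of the 100 most abundant genes differed by -22 percentage points and that of the top 10 by -10.2 (exact permutation p = 0.005 each). In TRDKO tadpoles the share of the top 10 was 0.817 points larger at stage 61 (exact permutation over libraries, p = 0.4). The share of the single most abundant gene differed by -2.8 points and did not pass (exact permutation p = 0.1). Its stage effect was -3.18 points in wild type and -0.378 in TRDKO tadpoles. With genotype permuted within stage, the smallest p needs the genotypes to separate in opposite directions at the 2 stages. Wild type was higher at both, with 3.54% against 3.41% at stage 61, so this p does not show the stage effects to be alike. The 100 most abundant genes took 50.1% ± 0.222 of counts at stage 61 and 41.7% ± 1.41 at stage 54 in TRDKO tadpoles (SD, n = 3), the opposite order to wild type. Without TRDKO stage 54 replicate 3, the differences were 1740 genes at equal depth, 274 genes, 1.83 bits and -22.8 points.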

How the results depend on the processing

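Over 239 values recomputed under an alternative, 222 kept their direction and side of the threshold or, for counts, stayed within 1.5 times. Many of these values belong to the 4 genes picked for their large change, or leave out 1 of 3 closely similar libraries. The tally is therefore no measure of stability. None of the 4 genes given by ID reversed its sign, but the balance of higher and lower genes did in 2 level classes under library size alone (at 10 to 100 CPM at stage 54 and in the highest 10% by level). Leaving out single wild-type libraries, 3961 to 4240 genes were higher and 2952 to 3316 lower, and 316 to 475 were switched on and 27 to 39 switched off. The change then lay within 1.5-fold in 1705 to 1816 genes, against 2060 in the main fit. It did so in 2941 genes with the 6 wild-type libraries alone and in 1394 under library size alone. The replicate number as a block on the 6 wild-type libraries gave 4263 higher and 2945 lower genes, against 4267 and 2943 without it, and changed no call of the 4 genes. Library size alone called 8110 higher and 955 lower genes, and put ENSXETG00000021236 at -0.75. Without a fold threshold 5995 were higher and 5220 lower. With limits of 0 and 10 counts for silence, 39 and 957 genes were switched on, and 7 and 76 switched off. In the lowest 10% of genes by level, 122 were lower, against 73 under library size alone and 69 to 133 with single libraries left out. The filter on low counts bears on the direction of genes in this class. In the highest 10%, 64 were higher and 703 lower, against 316 and 264 under library size alone and 36 to 89 and 656 to 831 with single libraries left out. Leaving out stage 61 replicate 1, 2 or 3 gave 75, 75 and 69 lower genes in the lowest and 37, 36 and 37 higher genes in the highest 10%. The cause was not tested. Alternatives by level class and the genotype comparisons were chosen after seeing the data. Depth limits genes under 0.208 CPM at stage 54.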
